A study of Mus musculus with 40 samples.

Results

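The phase II conjugation enzymes of the UDP-glucuronosyltransferase (Ugt), sulfotransferase (Sult) and glutathione S-transferase (Gst) families were followed in mouse liver across 3 doses of GenX in both sexes. Members were the genes whose symbol began with Ugt1, Ugt2 or Ugt3, with Sult1 to Sult6, or with Gst followed by a class letter (a, m, p, t, z, k or o) and a digit. Each gene was represented by its most counted probe and had to hold at least 100 reads in 4 or more libraries. Of 62 matching symbols, 48 met this limit (15 of 20 Ugt, 14 of 21 Sult and 19 of 21 Gst genes), among 8143 of the 21448 genes of the series that met it. All 48 also passed the filter on low counts of the tested probes.

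Male and female wildtype Crl:CD1(ICR) mice had received GenX, the ammonium salt of a short fluorinated ether acid, by oral gavage for 90 days. The daily doses were 0.1, then 0.5 and lastly 5 mg for each kg of body weight, written here as mg/kg. Control mice were gavaged with deionized water alone. Each of the 8 groups held 5 separate mice, numbered 01 to 05 for males and 51 to 55 for females after a group digit. Their age is not given in the sources used here, and female mouse 355 of the 0.5 mg/kg group was left out for low depth, which leaves 4 females there.

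RNA came from scraped sections of formalin-fixed, paraffin-embedded liver and was counted with TempO-Seq probes. The 39 libraries held 10341341 to 15562253 reads. Reads fell in multiples of 20.8 to 49.8 per captured molecule, so that a library held an estimated 287727 to 655905 molecules and a value of a few CPM (TMM-scaled counts per 1e6 reads) stands for 1 or a few molecules. The estimate comes from the first peak of each library's read histogram, and the assay has no molecular identifiers to check it. Control males had a median of 331034 molecules and males at 5 mg/kg one of 590657. The Y-linked genes Ddx3y and Uty had reads in all 20 males and in 0 of 19 females, which fits the sex in the labels. Summed hepatocyte markers (Alb, Ttr, Apoa2, Tat, Cps1 and Serpina1a) came to 8892 to 10208 CPM in control males and 10897 to 12106 CPM in control females.

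Phase II enzymes attach a polar group to a lipophilic molecule so that it can be excreted in bile or urine. Ugt enzymes transfer glucuronic acid from UDP-glucuronate, Sult enzymes transfer sulfate from PAPS, and Gst enzymes join glutathione to electrophiles. In rodent liver many of these genes differ between the sexes, several under the control of the sex-specific rhythm of growth hormone, and others respond to the nuclear receptors CAR and PXR or to the oxidative stress factor Nrf2.

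Several members are near copies of each other, which bounds how far a probe can tell them apart. The sequences below are shown for that reason, since the probe sequences are not given in the sources used here. In GENCODE coding sequences (GRCm38), Gstp1 (chr19:4035407-4037985, minus strand) and Gstp2 (chr19:4040285-4046023, minus strand) were 98.1% identical, and 70.9% of the 50-base windows of Gstp1 also stood in Gstp2. Gsta1 (chr9:78230656-78242684, plus strand) and Gsta2 (chr9:78331018-78355788, minus strand) were 97.6% identical with 50.2% of windows shared, and Sult3a1 and Sult3a2 were 91.1% identical with 8.19% shared. The 50 aligned coding bases in which each pair differs most are given 5′ to 3′, with the differing bases in capitals.
Gstp1, coding bases 281 to 330: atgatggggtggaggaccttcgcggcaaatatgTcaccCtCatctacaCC
Gstp2, coding bases 281 to 330: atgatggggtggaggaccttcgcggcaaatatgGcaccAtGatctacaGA
Gsta1, coding bases 459 to 508: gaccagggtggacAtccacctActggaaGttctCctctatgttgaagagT
Gsta2, coding bases 459 to 508: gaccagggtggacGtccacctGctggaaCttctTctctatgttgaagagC
Sult3a1, coding bases 149 to 198: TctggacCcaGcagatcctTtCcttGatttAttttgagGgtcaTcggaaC
Sult3a2, coding bases 149 to 198: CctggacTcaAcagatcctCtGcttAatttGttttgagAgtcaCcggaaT
Even there the Gstp and Gsta pairs differ in only 5 of 50 bases, so values of the rarer member of each pair are uncertain. The Ugt1a genes share their 3′ exons, and each pair of Ugt1a members shared 44.2% or more of these windows. The longest coding sequences on file for Ugt1a6a and Ugt1a7c were identical, although the genes start at different positions (chr1:88134809 and chr1:88095062, plus strand). This identity may not hold for their other transcripts. The values of the Ugt1a genes are uncertain in the same way, and so are those of the Sult2a genes, which may share reads. Sult2a1 and Sult2a5 were 94.9% identical, and 43.7% of the windows of Sult2a2 also stood in Sult2a1.

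At 5 mg/kg, 14 of the 48 members changed in males and 11 changed in females. Of the 14 Sult genes 4 fell and 1 rose in males, and 4 fell and 0 rose in females. Of the 19 Gst genes 5 rose and 3 fell in males, and 4 rose and 1 fell in females. Of the 15 Ugt genes 1 rose in males and 2 fell in females. Lower calls in males depended on the fit: with DESeq2, with counts in molecules and with only the groups compared, 11 members in place of 7 were lower. By DESeq2 and with counts in molecules 3 of these were the Ugt genes Ugt1a6a, Ugt2a3 and Ugt2b35, and Ugt1a7c was higher in females. In whole liver, fewer cells of a type and less RNA per cell cannot be told apart. The call was an edgeR quasi-likelihood test with a Benjamini-Hochberg adjusted p below 0.1, each dose against the controls of the same sex. Over all 17877 probes tested, 4.83% were called higher and 3.45% lower in males at this dose, against 7 of 48 members in each direction. In females 1.83% of probes were called higher and 1.83% lower, against 4 and 7 members. Members hold more reads than most probes: of the 8143 genes under the same read limit, 7.83% were higher and 5.59% lower in males, and 3.12% higher and 2.92% lower in females.

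At 0.5 mg/kg, 5 members were higher and 1 was lower in males, where 1.74% and 0.638% of probes were called higher and lower. With counts in molecules and with no filter on low counts 3 members were lower there, with Gstp1 and Sult1d1 added. In females 0 members were higher and 1 was lower, beside 0.185% and 0.028% of probes. At 0.1 mg/kg edgeR called 0 of 48 members in males (0.0336% of probes in either direction) and 0 in females (0.0% of probes). Unadjusted p fell below 0.05 for 3 members in males and 2 in females, and DESeq2 called 1 member in males (Sult2a7) and 0 in females. The median log2 fold change at 5 mg/kg was -0.07 for the 15 Ugt and -0.09 for the 19 Gst genes in males, where the median over all probes was 0.104. In females it was -0.107 for Ugt and 0.162 for Gst genes, beside -0.008 over all probes. For the Sult genes it was -0.69 over the 6 members with reads in both male groups (-0.847 over 7 with Sult5a1 at its bound) and -2.06 over 13 members in females (-2.09 over 14 with Sult1e1 at its bound). With DESeq2 size factors in edgeR the median over all probes in males at 5 mg/kg moved from 0.104 to 0.031.

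**Figure D1:**
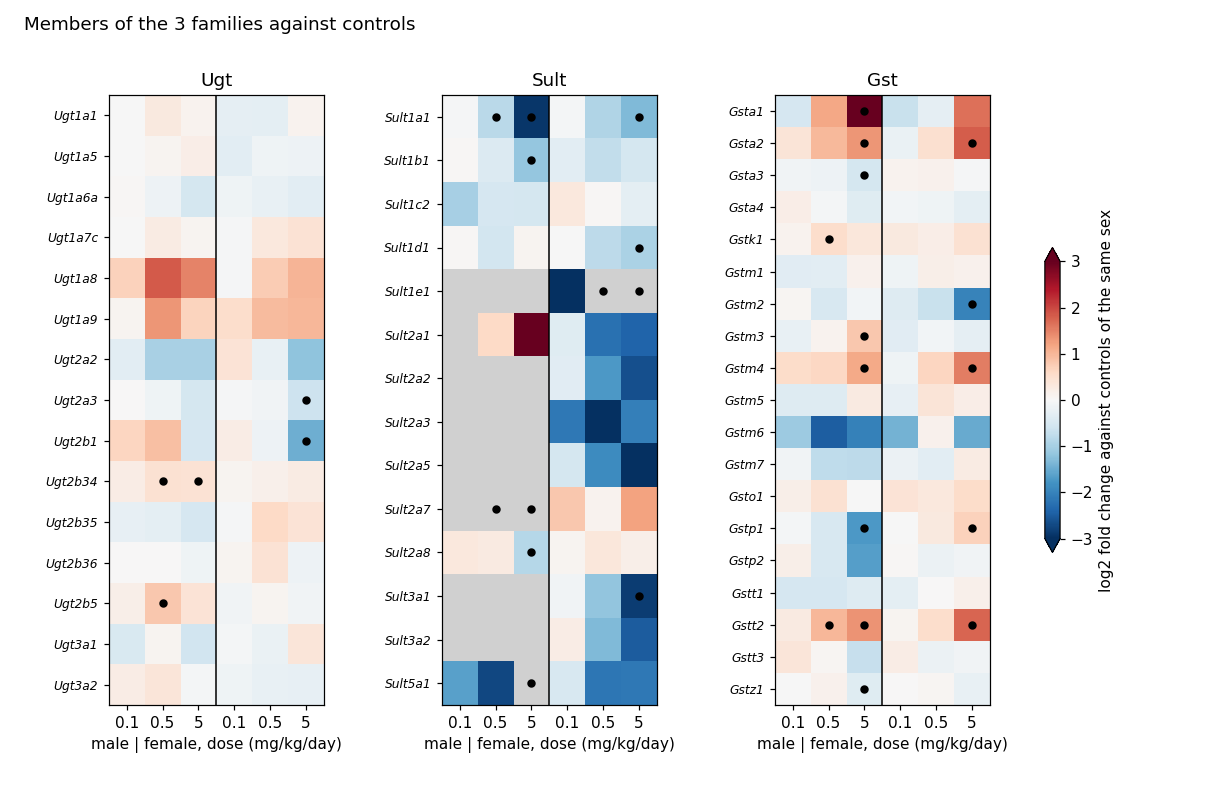
Fold changes of the 48 members (rows) at each dose in males and females (columns) on the log2 scale, against controls of the same sex, with colours ending at 3. Black points mark an adjusted p below 0.1, most of them at 5 mg/kg (14 members in males and 11 in females), and grey cells mark comparisons in which a group had no read.

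The control livers already differed by sex in 20 of the 48 members, 8 higher and 12 lower in males, beside 1.38% of probes higher and 2.11% lower. Gstp1, the pi-class transferase that is the main male form in mouse liver, was 12.1-fold higher in control males, at 5715 ± 2196 CPM against 471 ± 60.99 (SD, n = 5 each). Gstp2 was also higher in control males, at 45.2 ± 18.6 against 3.66 ± 2.64 CPM. The female mean lay under a floor of 3 captured molecules (7.60 CPM), so no fold is given. As a near copy of Gstp1, it may share reads with that gene. The other members higher in males were Gsta2 (log2 difference 1.88), Gstm1 (1.06), Gstm3 (0.77), Gstm4 (0.83), Ugt2b35 (1.71) and Ugt2b36 (0.79).

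Sult2a1, Sult2a2, Sult2a5, Sult3a1 and Sult3a2 were found almost only in females. These enzymes sulfate hydroxysteroids and bile acids (Sult2a) or amines (Sult3a). Control females held 1091, 2362, 4868, 4450.3 and 3842 CPM of Sult2a1, the most counted Sult gene, while the 5 control males held 1 read in all. Sult3a1 was at 1721, 2543, 862, 1323 and 838 CPM in control females, and its most counted probe had 0 reads in every male of every dose. This makes it at least 155-fold lower in control males against a floor of 3 captured molecules per library. By the same floor Sult2a2 was at least 12.04-fold lower, Sult3a2 at least 2.43-fold lower and Sult2a5 at least 1.76-fold lower in control males. Sult1a1 (log2 difference -1.27), Sult1d1 (-1.59), Gstt3 (-0.998), Ugt1a1 (-0.91) and Ugt3a2 (-0.40) were lower in control males but had reads in all mice of both sexes. Sult1e1 and Sult2a7, also lower in control males, are described below with their doses.

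The 250 bases upstream of the RefSeq start of Sult3a1 (GRCm38, chr10:33857472-33857721, plus strand) are shown because its most counted probe had no read in any male. Capitals mark a match to TTCNNNGAA, the palindrome bound by STAT factors such as the growth hormone effector STAT5.
Sult3a1: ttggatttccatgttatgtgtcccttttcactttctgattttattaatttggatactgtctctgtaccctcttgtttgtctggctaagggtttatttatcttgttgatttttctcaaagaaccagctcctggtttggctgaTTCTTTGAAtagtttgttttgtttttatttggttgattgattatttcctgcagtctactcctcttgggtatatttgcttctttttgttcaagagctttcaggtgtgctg
Searched on both strands, this motif stood in 3 of the 42 member promoters on file (Gsta1, Sult3a1 and Ugt1a6a) and in 7.18% of all 27025 promoters of that length. The antioxidant response core TGACNNNGC, the site of Nrf2, stood in 2 member promoters (Gsta3 and Gstm5) and in 10.1% of all promoters. The nuclear receptor half-site AGGTCA stood in 8 member promoters and in 13.8% of all. A match is a description of letters in this window only.

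Sult1a1, the main phenol sulfotransferase of liver, had the largest fall in males among the members with reads in every male. Control males held 501, 715, 341, 474 and 573 CPM. Males given 0.5 mg/kg held 508, 288, 234, 286 and 159.5, and males given 5 mg/kg held 48.4, 75.8, 49.9, 74.1 and 97.5. All 5 males at 5 mg/kg lay below all controls, 7.53-fold lower on average, with a log2 fold change of -2.91 ± 0.27 (SE, adjusted p = 9.43e-12). The change at 0.5 mg/kg was -0.82 ± 0.25 (SE, adjusted p = 0.0931), and mouse 301 lay within the control range. This call was lost when any 1 of 8 of the 10 mice was left out, with log2 values of -1.11 to -0.66.

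Female controls held 775, 1933, 1329.6, 1361 and 879.8 CPM of Sult1a1 and females at 5 mg/kg held 858, 409.9, 359.6, 463 and 411. Mouse 451 was the exception, within the range of the controls, and the other 4 lay below them. The log2 fold change was -1.33 ± 0.25 (SE, adjusted p = 4.06e-04). The 4 females given 0.5 mg/kg held 685, 693, 494 and 799 CPM, with a log2 fold change of -0.91 ± 0.27 (SE, adjusted p = 0.294). The edgeR fits with no filter on low counts (adjusted p = 0.00102) and with counts in molecules (adjusted p = 0.093) called it lower. The fall at 5 mg/kg was larger in males, with a difference between the sexes of -1.58 ± 0.36 (SE, adjusted p = 0.0148) on the log2 scale.

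Sult1d1, which sulfates catecholamines and other phenols, fell in females at 5 mg/kg. Control females held 469, 1069.5, 925, 909 and 796 CPM and females at 5 mg/kg held 536, 305, 444, 415 and 452, a log2 fold change of -0.95 ± 0.19 (SE, adjusted p = 6.63e-04). Only control mouse 151 and treated mouse 451 made the groups overlap. In males the values were 211 to 303 CPM in controls and 242 to 338 at 5 mg/kg, with a log2 fold change of 0.08 ± 0.19 (SE, adjusted p = 1), and the sexes differed by 1.03 ± 0.26 (SE, adjusted p = 0.0485). Males given 0.5 mg/kg held 183, 222, 173, 189 and 174 CPM, with a log2 fold change of -0.56 ± 0.19 (SE, adjusted p = 0.148) that 5 of 7 alternatives called, DESeq2 among them. Females given 0.5 mg/kg held 538, 586, 313 and 506 CPM, with a log2 fold change of -0.78 ± 0.20 (SE, adjusted p = 0.122). DESeq2 called it (adjusted p = 0.0123), as did the fits with counts in molecules and with no filter.

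Sult1b1, known for the sulfation of thyroid hormones, fell in males at 5 mg/kg. Controls held 34.9, 68.2, 35.6, 58.2 and 69.01 CPM and treated males 19.9, 18.9, 18.99, 34.7 and 26.5. The groups did not overlap, and mouse 404 lay just below the lowest control. The fit gave -1.16 ± 0.28 (SE, adjusted p = 0.00355) on the log2 scale, and in females it was -0.53 ± 0.27 (SE, adjusted p = 0.309). A less counted probe of the gene gave -0.85 in males (adjusted p = 0.0649).

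Sult2a8, a bile acid sulfotransferase counted in every mouse of both sexes, also fell in males. Controls held 227, 218, 192, 191 and 179.8 CPM and males at 5 mg/kg held 104, 108, 127, 94.2 and 127, all below the controls. The log2 fold change was -0.85 ± 0.22 (SE, adjusted p = 0.00805) in males and 0.18 ± 0.22 (SE, adjusted p = 1) in females, and the difference between the sexes had an adjusted p of 0.122. DESeq2 called this difference (adjusted p = 0.0282), as did the fits with DESeq2 size factors, with counts in molecules and with no filter. The 2 less counted probes of Sult2a8 gave -0.66 (adjusted p = 0.163) and 1.37 (adjusted p = 0.852) in males.

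**Figure D2:**
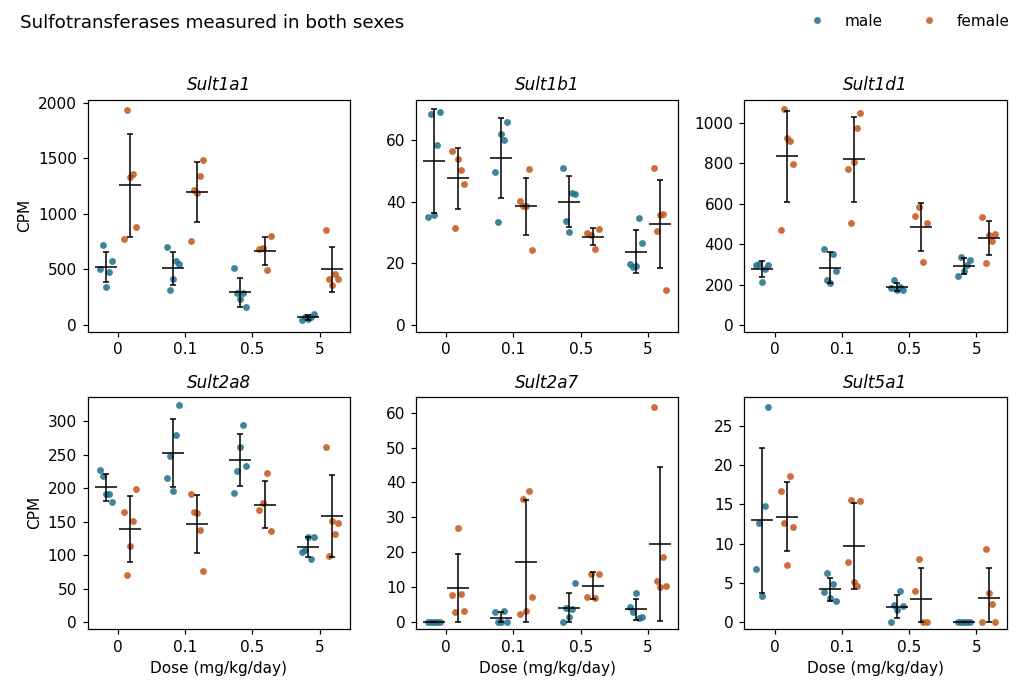
CPM of 6 Sult genes in each mouse by dose, males in blue and females in orange, with the group mean and SD as black lines. Sult1a1 went from 341 to 715 CPM in control males to 48.4 to 97.5 CPM at 5 mg/kg.

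Sult5a1, a low count sulfotransferase gene, was no longer counted in males at 5 mg/kg. Control males held 6.83, 12.6, 3.36, 14.8 and 27.4 CPM, at most 8.4 captured molecules in 1 mouse. The 0.1 mg/kg males held 3.91, 6.30, 3.02, 4.88 and 2.74 CPM, and those given 0.5 mg/kg held 0, 2.24, 1.53, 4.01 and 2.03. No read was found in any of the 5 males at 5 mg/kg, the group with the highest median number of captured molecules, which is at least 2.58-fold lower (adjusted p = 4.58e-05). Females went from 16.7, 12.7, 7.25, 18.6 and 12.1 CPM in controls to 0, 9.34, 3.67, 2.27 and 0 at 5 mg/kg, which missed the threshold (adjusted p = 0.381). The sex interaction had an adjusted p of 0.0306, but its fit includes the male group with no read. Of the control males 2 lay at or under the floor of 3 molecules, and without mouse 105 the bound was 1.87-fold. A larger fall in males than in females is therefore not shown.

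Sult2a7 ran the other way in males. Control males had 0 reads in 5 of 5 mice. The 0.1 mg/kg males held 3.00, 0, 0, 3.05 and 0 CPM. The 0.5 mg/kg males held 0, 4.09, 1.37, 3.64 and 11.2 CPM, and the 5 mg/kg males held 4.26, 2.85, 8.47, 1.28 and 1.48, at most 5.0 molecules in any male. The calls (adjusted p = 0.00133 and 3.11e-04) therefore rest on a presence of single molecules, and both group means are under the floor of 3 molecules, so no fold is given. Libraries of control males held a median of 331034 captured molecules, against 448405 at 0.5 mg/kg and 590657 at 5 mg/kg. The part of this deeper sampling in the Sult2a7 calls was not tested. Females held 7.65, 2.83, 26.9, 8.19 and 3.26 CPM in controls and 61.5, 11.8, 10.2, 18.7 and 10.5 at 5 mg/kg (adjusted p = 0.83). The difference between the sexes had an adjusted p of 0.0653 at 5 mg/kg and 0.055 at 0.5 mg/kg.

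Sult1e1, the estrogen sulfotransferase, was present only in females apart from 1 male. Control females held 0, 515, 156, 79.7 and 7.91 CPM, so that 1 mouse had none and the highest had 214.1 molecules. At 0.1 mg/kg the values were 3.00, 2.33, 9.76, 40.5 and 3.86 CPM. With no filter on low counts edgeR called this change lower (log2 -3.67, adjusted p = 2.07e-04), while edgeR with its filter did not. All 4 females at 0.5 mg/kg and all 5 at 5 mg/kg had 0 reads, at least 18.1-fold lower (adjusted p = 0.00169) and at least 17.01-fold lower (adjusted p = 3.70e-05) than controls. Both bounds rest largely on control mouse 152, without which they were 7.27 and 6.82. The groups overlap through the control at 0. With mouse 355 kept in the fit, edgeR did not call the 0.5 mg/kg change (log2 -2.12, adjusted p = 0.961). The absence at that dose therefore holds only for the 4 females counted here. The sex difference called at 0.5 mg/kg (adjusted p = 0.00369) rests on male 301, with 2.00 CPM or 0.9 of a molecule, and was lost without it.

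The Sult2a and Sult3a genes of females were uneven between mice at the higher doses, and of these Sult3a1 alone was called lower. It was at 1198, 612, 8.07 and 754 CPM in the 0.5 mg/kg females. The 5 mg/kg females held 655, 9.77, 252, 61.4 and 36.4 CPM, where all 5 mice lay below all controls. Its log2 fold change at 5 mg/kg was -2.84 ± 0.75 (SE, adjusted p = 0.0271), and a less counted probe gave -3.44 (adjusted p = 0.00954). DESeq2 did not call the most counted probe. Leaving out mouse 451 moved the log2 value to -4.02.

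Sult2a1 was 883, 1698, 4.20 and 218 CPM in the 0.5 mg/kg females. The 5 mg/kg females held 3023, 94.4, 10.4, 4.68 and 4.66 CPM. Mouse 451 stayed within the control range while the other 4 mice at 5 mg/kg lay at 94.4 CPM or less, and the fit gave -2.40 ± 1.05 (SE, adjusted p = 0.258). Sult2a2 was 88.8, 3.00, 0, 0 and 0 CPM at 5 mg/kg against 74.8 to 127 in controls (log2 -2.63 ± 1.10 SE, adjusted p = 0.258). Sult3a2 was 15.57, 2.78, 1.91, 0.0731 and 0 against 5.77 to 40.98 (log2 -2.49 ± 1.141 SE, adjusted p = 0.258), and Sult2a5 7.45, 1.85, 0, 0 and 0 against 8.76 to 26.1 (log2 -3.15 ± 1.64 SE, adjusted p = 0.332). None of these 4 was called by edgeR with its filter. Without the filter Sult2a1 and Sult2a2 were called, and with counts in molecules Sult2a2 and Sult3a2 were called, all lower. Mouse 451 was the highest of its group for all 5 genes, and mouse 353 the lowest of the 0.5 mg/kg group or tied at 0. In males Sult2a1 had 1 read in all controls together, and at 5 mg/kg 1.77 CPM in mouse 404, 10.6 CPM in mouse 405 and 0 in the other 3 (adjusted p = 0.13). DESeq2 called this difference.

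**Figure D3:**
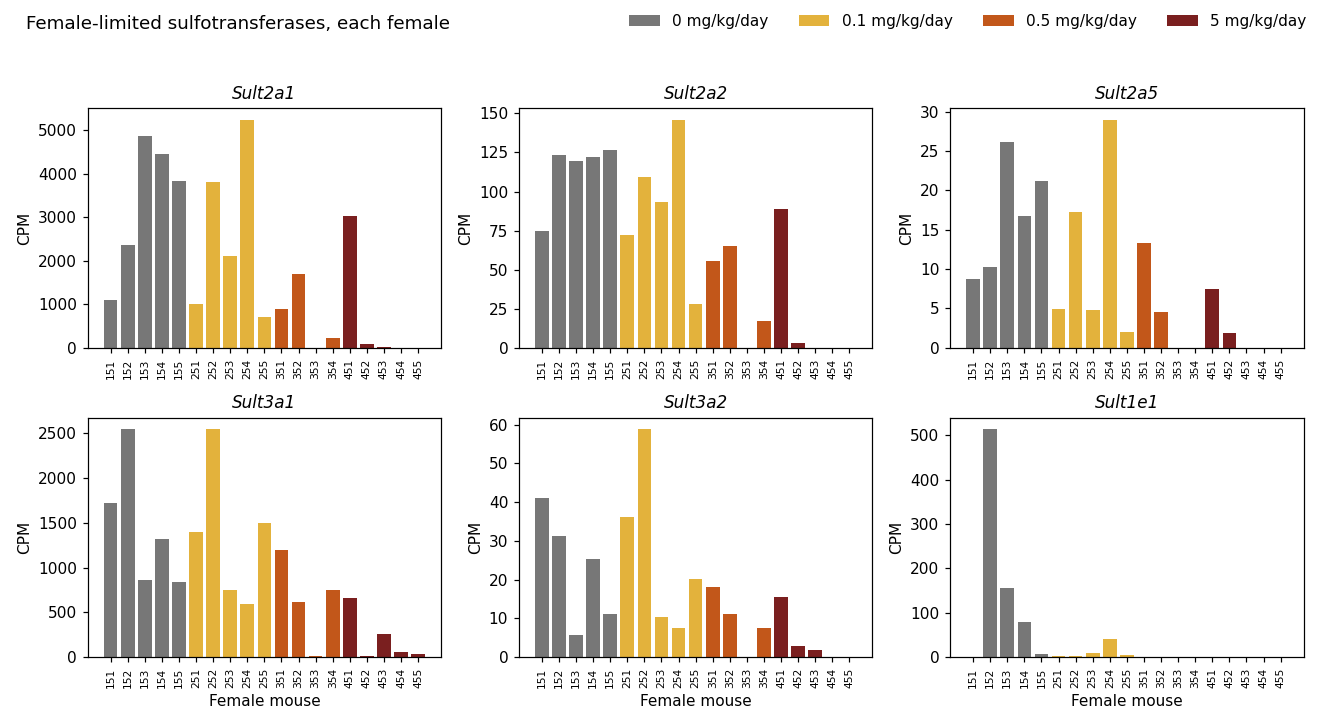
CPM of 6 female-limited Sult genes in each of the 19 females, coloured by dose, with the mouse number under each bar. At 5 mg/kg mouse 451 kept 3023 CPM of Sult2a1 while the other 4 mice held 94.4 or less. Sult1e1 had no read in the mice shown at 0.5 or 5 mg/kg, with mouse 355 left out.

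Summed over the 14 members, Sult reads came to 1071 ± 199 CPM in control males and 508 ± 65.4 at 5 mg/kg, and to 7401 ± 1834 CPM in control females and 2009.5 ± 1994 at 5 mg/kg (SD, n = 5 each). Mouse 451 held much of the last value, and the other 4 females came to 1119 ± 127 CPM. Gst reads came to 16974 ± 2085 CPM in control males and 12992 ± 1509 at 5 mg/kg, and to 9161 ± 699 and 9409 ± 473 CPM in females. Ugt reads came to 3174 ± 289.9 and 3228 ± 223 CPM in males, and to 3555 ± 308 and 3577 ± 490.4 CPM in females. Probes differ in efficiency, so such a sum weights the most counted genes.

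Gstp1 fell in males and rose in females. Control males held 4775, 2639, 6064, 6526 and 8571 CPM and males at 5 mg/kg held 2009, 1569, 1659, 1814 and 1581. At 0.1 mg/kg they spanned 4282 to 7569 CPM, and at 0.5 mg/kg the values were 4878, 2922, 4573, 3343 and 4710.1. All treated males at 5 mg/kg lay below the lowest control, 3.31-fold lower on average, with a log2 fold change of -1.73 ± 0.21 (SE, adjusted p = 2.54e-08). The fold change at 0.5 mg/kg was -0.48 ± 0.21 (SE, adjusted p = 0.259).

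Control females held 455, 490.2, 474, 384 and 553 CPM of Gstp1 and females at 5 mg/kg held 519.9, 839.9, 864, 742 and 830.4, with mouse 451 alone in the control range. The log2 fold change was 0.69 ± 0.21 (SE, adjusted p = 0.0584), a call that was lost when any 1 of 6 of the 10 mice was left out (log2 0.62 to 0.80). The sexes differed by -2.42 ± 0.30 (SE, adjusted p = 7.06e-07). Males at 5 mg/kg still held more Gstp1 than any female. A less counted Gstp1 probe gave -1.35 on the log2 scale for the males (adjusted p = 3.3e-05). The same probe gave 0.75 for the females (adjusted p = 0.0689).

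Gstp2 went from 45.2 ± 18.6 CPM in control males to 14.3 ± 3.73 at 5 mg/kg (SD, n = 5 each), with a log2 fold change of -1.66 ± 0.75 (SE, adjusted p = 0.193). Control mouse 102, at 13.9 CPM, lay within the treated range, and the gene was called with counts in molecules, with no filter on low counts and with only the groups compared in the fit. Females held 0 to 8.11 CPM at all doses.

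Among the alpha-class genes Gsta1 and Gsta2 rose in males, Gsta3 fell by its most counted probe only, and Gsta4 was not called. Gsta1, known as a target of Nrf2, held 8.46, 0, 36.9, 12.2 and 9.58 CPM in control males and 45.3, 7.72, 43.7, 22.5 and 31.6 at 0.5 mg/kg. The 5 mg/kg males held 93.6, 213, 65.5, 197 and 153, all above the controls, with a log2 fold change of 3.43 ± 0.99 (SE, adjusted p = 0.0217). With 1 mouse left out the value ran from 3.11 to 4.25, the highest without control mouse 103. Females held 10.3, 0, 1.73, 6.28 and 0 CPM in controls and 9.03, 26.04, 3.03, 9.14 and 9.94 at 5 mg/kg, with a log2 fold change of 1.65 ± 0.95 (SE, adjusted p = 0.424).

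Gsta2 rose in both sexes. Males went from 46.00, 17.04, 39.9, 21.98 and 29.3 CPM to 63.3, 83.1, 55.4, 107 and 76.2 at 5 mg/kg without overlap, with a log2 fold change of 1.32 ± 0.42 (SE, adjusted p = 0.0427). Females went from 16.2, 2.75, 10.7, 10.7 and 1.46 CPM to 8.65, 38.2, 54.7, 26.6 and 18.9, where mouse 451 stayed in the control range, with a log2 fold change of 1.82 ± 0.43 (SE, adjusted p = 0.00626). The difference between the sexes was -0.50 ± 0.58 (SE, adjusted p = 1). The male call was lost without control mouse 102 or 104 or treated mouse 404, with log2 values of 1.17 to 1.22.

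Gsta3, the most counted Gst gene and the enzyme that detoxifies aflatoxin epoxide in mice, fell slightly in males. Controls held 6724, 7299, 6455, 6794 and 6334 CPM and males at 5 mg/kg held 4723, 3868, 4771, 5232 and 4755, all below the controls. This was a log2 fold change of -0.53 ± 0.11 (SE, adjusted p = 4.59e-04). A less counted probe of the gene gave 0.03 (adjusted p = 1.0), so the fall was seen with 1 of 2 probes. Females spanned 4611 to 6630.3 CPM in controls and 5227 to 5814 at 5 mg/kg, with a log2 fold change of -0.03 ± 0.11 (SE, adjusted p = 1).

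**Figure D4:**
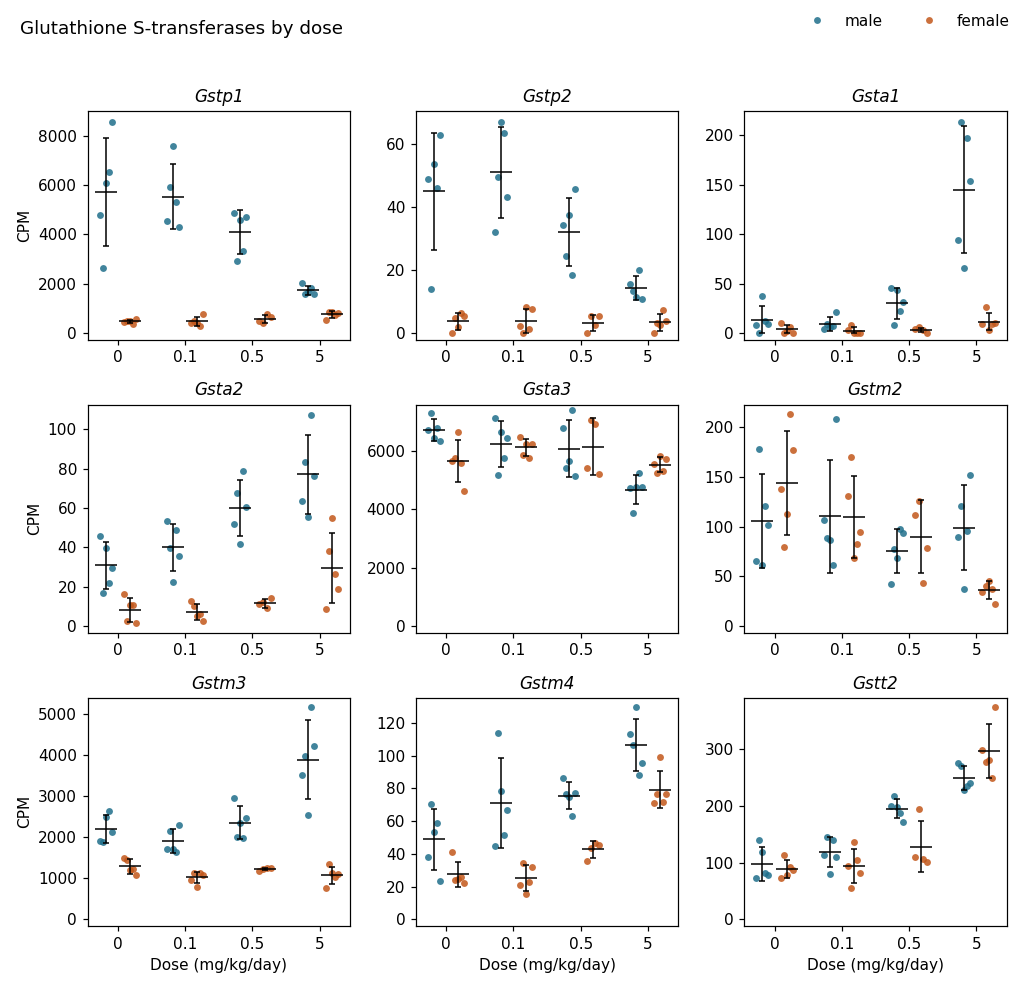
CPM of 9 Gst genes in each mouse by dose, males in blue and females in orange, with the group mean and SD as black lines. Gstp1 fell in males from 5715 to 1726 CPM on average and rose in females from 471 to 759 CPM between controls and 5 mg/kg.

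The mu-class genes, which lie together on chromosome 3, split by gene and by sex. Gstm4 rose in both sexes, from 37.8, 70.6, 53.5, 58.7 and 23.1 CPM in control males to 113, 106, 129.6, 88.2 and 95.1 at 5 mg/kg and from 40.9, 23.9, 24.7, 25.9 and 21.9 in control females to 71.2, 76.7, 99.04, 71.9 and 76.8. Neither sex overlapped with its controls. Fitted log2 fold changes were 1.13 ± 0.24 (SE, adjusted p = 0.00107) in males and 1.53 ± 0.25 (SE, adjusted p = 2.29e-05) in females.

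Gstm3 rose in males. Controls held 1894, 1879, 2482, 2643 and 2122 CPM and males at 5 mg/kg held 3525, 3974, 2551, 5176 and 4229, where mouse 403 alone lay in the control range. The log2 fold change was 0.82 ± 0.15 (SE, adjusted p = 6.60e-05) in males and -0.27 ± 0.15 (SE, adjusted p = 0.355) in females, and the sexes differed by 1.09 ± 0.21 (SE, adjusted p = 0.00269). With all 40 libraries in the fit neither the male change nor the sex difference was called.

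Gstm2 fell in females, against the direction of Gstm4. Control females held 138, 79.5, 113, 213 and 177 CPM and females at 5 mg/kg held 34.4, 40.4, 45.5, 37.7 and 21.8, all below the controls. The fall was 4.01-fold, with a log2 fold change of -2.002 ± 0.33 (SE, adjusted p = 3.62e-05). Males spanned 61.7 to 178 CPM in controls and 37.4 to 152 at 5 mg/kg, with a log2 fold change of -0.09 ± 0.32 (SE, adjusted p = 1), and the sexes differed by 1.91 ± 0.46 (SE, adjusted p = 0.0279). Gstm1 held 1218 ± 338 CPM in control males and 1331 ± 284 at 5 mg/kg (log2 0.13 ± 0.16 SE, adjusted p = 0.923).

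Gstt2, a theta-class transferase active on small halogenated and sulfate ester compounds, rose in both sexes. Control males held 72.6, 139, 119, 81.1 and 77.3 CPM, those given 0.5 mg/kg 200.4, 217, 199, 187 and 172, and those given 5 mg/kg 275, 269.9, 229, 236 and 241. Both treated groups lay above all controls. Fitted log2 fold changes were 0.99 ± 0.20 (SE, adjusted p = 0.00189) and 1.35 ± 0.20 (SE, adjusted p = 1.98e-06). Females went from 73.7, 113, 78.01, 93.2 and 87.5 CPM in controls to 109.6, 195, 106 and 101 at the middle dose. The 5 mg/kg females held 299.5, 277, 282, 249 and 375 CPM, where the log2 fold change was 1.74 ± 0.20 (SE, adjusted p = 1.56e-08).

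At 5 mg/kg a less counted Gstt2 probe gave 0.92 in males (adjusted p = 0.175). Its value for the females was 1.61 (adjusted p = 0.0109). Gstk1, the kappa-class enzyme of mitochondria and peroxisomes, rose in males at 0.5 mg/kg (log2 0.54 ± 0.16 SE, adjusted p = 0.0942) from 186 ± 28.9 to 269.7 ± 68.4 CPM. It was at 235 ± 23.8 CPM at 5 mg/kg (log2 0.33 ± 0.16 SE, adjusted p = 0.222). Gstz1, which also serves tyrosine breakdown as maleylacetoacetate isomerase, fell in males at 5 mg/kg from 329 ± 32.5 to 255 ± 35.01 CPM (log2 -0.37 ± 0.13 SE, adjusted p = 0.0828), and a less counted probe gave -0.74 (adjusted p = 0.000405). Gstt3 was 39.97 ± 6.97 and 24.95 ± 8.40 CPM in these groups (log2 -0.68 ± 0.25 SE, adjusted p = 0.109), and 4 of 7 alternatives called it lower, DESeq2 among them (adjusted p = 0.0402).

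Among the Ugt genes 4 were called at some dose. Ugt2b5, a glucuronosyltransferase of steroids and phenols, rose in males at the middle dose, from 449, 296, 483, 355 and 407 CPM in controls to 886, 547, 768, 614 and 697 at 0.5 mg/kg. These groups did not overlap, and the log2 fold change was 0.82 ± 0.17 (SE, adjusted p = 0.00334). Males given 5 mg/kg held 434, 681, 584, 458 and 497 CPM, with a log2 fold change of 0.42 ± 0.17 (SE, adjusted p = 0.16). A less counted probe gave 0.52 at 0.5 mg/kg (adjusted p = 0.308).

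Ugt2b34 rose in males at both doses, from 294, 248, 279, 246 and 296 CPM in controls to 422, 329, 352, 347 and 420.1 at 0.5 mg/kg. The 5 mg/kg males held 315, 398, 358, 372 and 393 CPM. Both treated groups lay above all controls. The log2 fold changes were 0.45 ± 0.13 (SE, adjusted p = 0.0582) and 0.43 ± 0.13 (SE, adjusted p = 0.0313). With no filter on low counts neither was called. Females held 235 to 299 CPM in controls and 256 to 408 at 5 mg/kg (log2 0.26 ± 0.13 SE, adjusted p = 0.293).

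Ugt2b1, which glucuronidates phenols such as bisphenol A, fell in females. Controls held 34.9, 35.9, 34.9, 17.96 and 24.2 CPM and females at 5 mg/kg held 13.5, 2.64, 19.9, 6.88 and 10.7, at most 6.2 molecules, with mouse 453 above the lowest control. The log2 fold change was -1.46 ± 0.39 (SE, adjusted p = 0.0234), and it was not called with only the groups compared in the fit. Males held 36.95, 13.97, 17.9, 24.5 and 22.5 CPM in controls and 45.00, 45.1, 36.1, 31.4 and 59.8 at the middle dose. The 5 mg/kg males held 5.27, 13.6, 25.1, 19.9 and 18.5 CPM, and the fits gave adjusted p of 0.259 and 0.613.

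Ugt2a3, a bile acid glucuronosyltransferase, sat at the threshold in females. Controls held 301, 103, 148, 185 and 147 CPM and females at 5 mg/kg held 179.7, 65.9, 111, 97.4 and 126, which overlap, with a log2 fold change of -0.61 ± 0.20 (SE, adjusted p = 0.0999). The call was lost when any 1 of 6 of the 10 mice was left out, and the value then ran from -0.82 to -0.33. In males it was -0.52 ± 0.20 (SE, adjusted p = 0.123), a fall that 5 of 7 alternatives called, with adjusted p from 0.0167 with counts in molecules to 0.0782 with probes summed per gene.

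Ugt1a1, the bilirubin glucuronosyltransferase and the most counted Ugt gene, was not called at any dose. It held 709 ± 74.4 CPM in control males and 766 ± 85.5 at 5 mg/kg, and 1335 ± 181 and 1447 ± 228 CPM in females (SD, n = 5 each). The log2 fold changes were 0.11 ± 0.15 (SE, adjusted p = 0.941) and 0.12 ± 0.15 (SE, adjusted p = 1). Ugt2b35 went from 337 ± 94.7 to 239 ± 12.8 CPM in males (log2 -0.50 ± 0.20 SE, adjusted p = 0.159), which was called lower by DESeq2 (adjusted p = 0.0674), with counts in molecules and with only the groups compared. Ugt2b36 went from 385 ± 63.3 to 349 ± 41.4 CPM (log2 -0.14 ± 0.15 SE, adjusted p = 0.853), and Ugt3a2 from 531 ± 47.8 to 506 ± 49.5 CPM (log2 -0.07 ± 0.13 SE, adjusted p = 1).

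**Figure D5:**
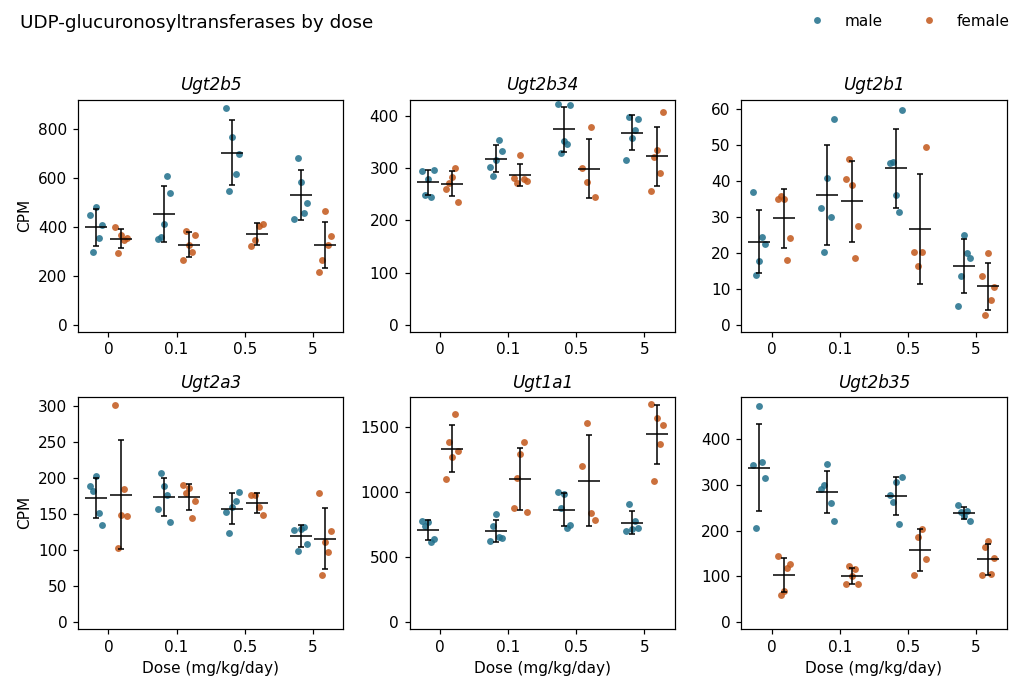
CPM of 6 Ugt genes in each mouse by dose, males in blue and females in orange, with the group mean and SD as black lines. Ugt2b5 was highest in males at 0.5 mg/kg (547 to 886 CPM), and Ugt1a1 was higher in control females (1335 CPM on average) than in control males (709 CPM).

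The sex interaction asks whether the dose effect differed between males and females. At 5 mg/kg it was called for 7 members, 4 with a higher and 3 with a lower change in males, beside 0.582% and 0.459% of probes. Those higher in males were Gstm2, Gstm3, Sult1d1 and Sult2a7, and those lower were Gstp1, Sult1a1 and Sult5a1. DESeq2 and the fit with no filter also called Gsta3, Sult2a8 and Ugt2b35 lower in males (DESeq2 adjusted p = 0.0116, 0.0282 and 0.0338). Both called Sult2a1 higher in males, with next to no Sult2a1 reads in control males. For the sex difference of Gsta3 a less counted probe gave a log2 value of 0.09. For Sult5a1 the treated males and for Sult2a7 the control males had no read, so the size of neither difference is measured. At 0.5 mg/kg it was called for Sult1e1 and Sult2a7, both higher in males (0.213% of probes, with 0.0615% lower). At 0.1 mg/kg edgeR and DESeq2 each called 0 members (0.0% of probes), with an unadjusted p below 0.05 for 1 member. With the low-depth library kept, so that all 40 libraries entered the fit, the calls fell from 14 to 9 in males and from 11 to 7 in females at 5 mg/kg, from 6 to 1 in males at 0.5 mg/kg, and from 7 to 1 for the interaction at 5 mg/kg.

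The other 15 members were called in no comparison by edgeR with its filter and the 39 libraries, by their most counted probe. They were Gsta4, Gstm5, Gstm6, Gstm7, Gsto1, Gstt1, Sult1c2, Sult2a3, Ugt1a5, Ugt1a6a, Ugt1a7c, Ugt1a8, Ugt1a9, Ugt2a2 and Ugt3a1. Among the 14 with reads in both male groups the log2 fold change at 5 mg/kg ran from -2.02 (Gstm6) to 1.49 (Ugt1a8), with a smallest adjusted p of 0.158. In females it ran from -2.06 (Sult2a3) to 1.02 (Ugt1a8), with a smallest adjusted p of 0.178. The least counted probe of Ugt1a7c, with 100 reads or more in 9 libraries, was called by the same fit. It was higher in males at 0.5 mg/kg (adjusted p = 0.00444) and at 5 mg/kg (adjusted p = 0.00229). Between controls it was lower in males (adjusted p = 0.0371), while the more counted probes of the gene were not called. Other fits called some of the 15 members. Gstm6 was lower in males at 5 mg/kg with only the groups compared in the fit (log2 -2.02, adjusted p = 0.0151), and Ugt1a6a was lower there by DESeq2 (log2 -0.59, adjusted p = 0.0474), with DESeq2 size factors and with counts in molecules. Ugt1a7c was higher in females at 5 mg/kg by DESeq2 (log2 0.46, adjusted p = 0.0628) and with counts in molecules, and Ugt1a8 was higher in males at 0.5 mg/kg with no filter (log2 1.83, adjusted p = 0.0921). Between the controls Ugt1a6a was higher in males in 4 alternatives and Sult2a3 was lower in 3.

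Genes that supply the conjugating groups were counted in the same fits. Ugdh, which makes UDP-glucuronate, rose at 5 mg/kg from 467 ± 126 to 964 ± 91.5 CPM (SD, n = 5 each) in males (log2 1.04 ± 0.17 SE, adjusted p = 5.89e-06) and from 301 ± 66.5 to 559.5 ± 93.2 CPM in females (log2 0.90 ± 0.16 SE, adjusted p = 2.05e-04). Ugp2, one step before it, fell in males (log2 -0.80 ± 0.18 SE, adjusted p = 0.00243), so that of 6 genes of UDP-glucuronate supply 1 rose and 1 fell in males and 1 rose in females. Of 7 genes of PAPS and sulfate supply, Bpnt1 rose (log2 0.86 ± 0.20 SE, adjusted p = 0.00196) and the sulfate transporter Slc26a1 fell (log2 -0.72 ± 0.21 SE, adjusted p = 0.0262) in males, and sulfite oxidase Suox rose in females (log2 0.59 ± 0.15 SE, adjusted p = 0.0136).

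Of 8 tested genes of glutathione supply, glutathione reductase Gsr rose in males at 5 mg/kg (log2 0.65 ± 0.13 SE, adjusted p = 3.04e-04) and 5-oxoprolinase Oplah rose in females (log2 1.25 ± 0.34 SE, adjusted p = 0.0238). Of 2 tested microsomal glutathione transferases edgeR called 0 at 5 mg/kg, while DESeq2 called 1 in females and 0 in males, with an unadjusted p below 0.05 for 1 in females. Among 11 other conjugation enzymes Gnmt, a glycine methyltransferase, fell in males (log2 -1.66 ± 0.18 SE, adjusted p = 7.41e-10) and in females (log2 -0.64 ± 0.17 SE, adjusted p = 0.0267). Glyat and As3mt rose in males, and Inmt rose in females. Of 3 tested deconjugating enzymes edgeR called 0 at 5 mg/kg, and DESeq2 called 1 in females and 0 in males, with an unadjusted p below 0.05 for 1 in females.

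Of 15 receptors and factors known to act on these genes, 0 rose, and 2 fell in males and 1 fell in females at 5 mg/kg. Hnf4a fell in both (log2 -0.80 ± 0.16 SE, adjusted p = 4.97e-04 in males, and log2 -0.56 ± 0.16 SE, adjusted p = 0.0439 in females), and Rxra fell in males (log2 -0.35 ± 0.12 SE, adjusted p = 0.0821). Their readout genes showed the PPARα targets Ehhadh and Cyp4a14 raised in both sexes. Ehhadh went from 205 ± 50.8 to 10597 ± 1920.3 CPM in males (log2 5.70 ± 0.20 SE, adjusted p = 5.66e-28) and from 253 ± 46.2 to 7868 ± 1459 CPM in females (log2 4.96 ± 0.19 SE, adjusted p = 6.21e-26) at 5 mg/kg. The Nrf2 target Nqo1 rose in males from 3.91 ± 4.52 to 19.8 ± 7.62 CPM (log2 2.34 ± 0.75 SE, adjusted p = 0.0479). Its control mean lay under the floor of captured molecules for control males (9.41 CPM), so the size of this rise is uncertain. Cyp3a11, a PXR target, rose in males at 0.5 mg/kg (log2 1.22 ± 0.37 SE, adjusted p = 0.0929) but was not called in males at 5 mg/kg. Of 6 tested readout genes edgeR called 3 in males at 0.5 mg/kg, and DESeq2 called 2. Cyp1a2 fell at 5 mg/kg in males (log2 -1.50 ± 0.27 SE, adjusted p = 8.58e-05) and females (log2 -0.93 ± 0.27 SE, adjusted p = 0.0447). Only 6 of the 7 readout genes passed the filter on low counts, so 1 of Cyp2b10 and Cyp1a1 was not tested. The other was called in neither sex at 5 mg/kg.

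Markers of liver cell types were counted in the same libraries. At 5 mg/kg, 2 of 6 hepatocyte markers fell in each sex (Cps1 and Serpina1a). The sum of all 6 was 8173 to 9721 CPM in males and 9564 to 11658 CPM in females. Of 6 stellate and fibroblast markers 2 rose in males (Col1a1 and Col3a1), with sums of 63.7 to 129 CPM in control and 157 to 194 CPM in treated males, and 0 of 6 in females. Of 5 endothelial markers 1 fell in males, and 0 of 6 Kupffer cell, 0 of 3 tested cholangiocyte and 0 of 4 tested lymphocyte markers were called in either sex by edgeR or DESeq2. Unadjusted p fell below 0.05 for 1 of the Kupffer cell, 1 of the cholangiocyte and 1 of the lymphocyte markers in males, and for 0, 1 and 2 in females. The lymphocyte markers summed to 0 to 10.6 CPM in control males. Every marker of these lists had reads in at least 1 library. Their part in the changes of the members was not tested.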

How the data were processed

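FFPE liver RNA of 40 mice was measured with TempO-Seq, a targeted assay in which pairs of detector oligomers are ligated on the RNA and sequenced. The deposited values are raw counts of reads per probe, made by the authors. Per the labels, bcl2fastq 2.17.1.14, Bowtie and mm10 were used. One library (mouse 355, 6711981 reads) lay more than 2 standard deviations below the mean depth and was left out, as in the study's methods. Counts of the other 39 libraries were TMM-normalised in edgeR 4.0.16 (R 4.3.3) and tested with its quasi-likelihood F-test, with 1 coefficient per group, over the 17877 probes that passed its filter on low counts, and p-values were Benjamini-Hochberg adjusted over all of them. A gene was called changed at an adjusted p below 0.1. Standard errors were the log2 fold change divided by the root of F. CPM are TMM-scaled counts per 1e6 reads.

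Where every library of a group had no read, no fitted fold change is given, and a fold against a floor of 3 captured molecules per library (averaged over that group) stands in its place. Reads per captured molecule were estimated as the first peak of a library's read histogram, with no molecular identifiers to check it, and the floors rest on this. Standard errors and SDs include the spread between mice, while the floors cover counting error only. Alternatives were DESeq2 1.42.0, all 40 libraries, only the groups compared, DESeq2 size factors in edgeR, probes summed per gene, counts in molecules, no filter on low counts, and each mouse left out in turn. The fit was tested on simulated data. Gene positions and coding sequences came from GENCODE vM21 (GRCm38), promoters from RefSeq (GRCm38.p6), which held 42 of the 48 members. Genes with values in every mouse were, in each family, the up to 8 with the smallest p at 0.5 or 5 mg/kg among those called at any dose. Other called members have means and fold changes. The members and gene lists were chosen with earlier results of these data known. The labels number each mouse once over the whole study, so no pairing of groups exists.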

Additional observations from a re-analysis of the deposited data

Results flagged for a closer look

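In groups of 4 or 5 mice, 11 of 149 combinations of gene and group held 1 mouse far from the others by Dixon's test, which chance gives in about 1 of 20. Among the females at 5 mg/kg, mouse 451 stood apart with 858 CPM of Sult1a1 and 61.5 CPM of Sult2a7, and mouse 453 with 99.0 CPM of Gstm4. Among the females at 0.5 mg/kg, mouse 354 held 49.5 CPM of Ugt2b1 and mouse 352 held 195.0 CPM of Gstt2. Among the females at 0.1 mg/kg, mouse 253 held 325 CPM of Ugt2b34 and mouse 254 held 40.5 CPM of Sult1e1. Among control females, mouse 153 held 26.9 CPM of Sult2a7 and mouse 151 held 40.9 CPM of Gstm4. Sult1d1 was low in control male 103, at 211 CPM, and Sult1e1 was found in male 301 alone, at 2.00 CPM.

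The effect of dose differed between males and females in 9 tests by edgeR's quasi-likelihood interaction. At 5 mg/kg the adjusted p was 7.06e-07 for Gstp1, which fell in males and rose in females, and 0.00269 for Gstm3, which rose in males. It was 0.0148 for Sult1a1, lower in both sexes and further in males, and 0.0279 for Gstm2 and 0.0485 for Sult1d1, which both fell in females. For the low count genes Sult5a1 and Sult2a7 it was 0.0306 and 0.0653 at 5 mg/kg, each with a male group that had no read. At 0.5 mg/kg the adjusted p was 0.00369 for Sult1e1 and 0.0550 for Sult2a7, and both rest on single molecules in males.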

How the results depend on the processing

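None of 61 calls of a member reversed under any alternative run. DESeq2 kept 60 of 61, no filter on low counts 57, DESeq2 size factors in edgeR 57, probes summed per gene 61, counts in molecules 52 of 53 and only the groups compared 52 of 58. Leaving out 1 mouse kept 626 of 697. The fit with all 40 libraries kept 31 of 61. With it the number of members called went from 6 to 1 in males and from 1 to 0 in females at 0.5 mg/kg, from 14 to 9 in males and from 11 to 7 in females at 5 mg/kg, from 2 to 0 and from 7 to 1 for the sex interaction at 0.5 and 5 mg/kg, and from 20 to 13 between control males and females. The cause was not tested. DESeq2 called 1 member in males at 0.1 mg/kg, 2 in females at 0.5 mg/kg, and 4 and 11 for the interaction at 0.5 and 5 mg/kg. With no filter on low counts the number was 1 in males, 1 in females and 1 for the interaction at 0.1 mg/kg, 4 in females at 0.5 mg/kg and 11 for the interaction at 5 mg/kg. Counts in molecules gave 3 in females at 0.5 mg/kg and 1 for the interaction at that dose, and only the groups compared gave 7 in females at 5 mg/kg. With 1 mouse left out the number ran from 0 to 1 in males at 0.1 mg/kg, 3 to 5 in males and 1 to 2 in females at 0.5 mg/kg, and 1 to 2 and 5 to 8 for the interaction at 0.5 and 5 mg/kg. Calls at the threshold rested on single mice. Gstk1 in males at 0.5 mg/kg was lost without any 1 of mice 102, 103, 104, 302, 303 and 304 (log2 0.38 to 0.61 over all mice left out), Ugt2b34 there without 102, 104, 301 or 305 (0.41 to 0.50) and at 5 mg/kg without 402 (0.39), and Gstz1 in males at 5 mg/kg without 101, 102, 105, 402, 403 or 405 (-0.44 to -0.32). The sex interaction of Sult1d1 at 5 mg/kg was lost without 103, 152 or 402 (0.91 to 1.18), and that of Sult2a7 without 5 mice in turn at 0.5 mg/kg and 8 at 5 mg/kg. The control sex differences of Gstm4 (0.66 to 1.02) and Ugt3a2 (-0.44 to -0.33) were each lost without any 1 of 7 mice. No paired analysis was possible because each mouse number occurs once. A floor of 3 molecules was 5.04 to 9.41 CPM by group, which limits what can be said of Sult1e1 in males, Sult2a5, Sult2a7 and Sult5a1.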
